A study of Mus musculus with 4 samples.

Results

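Neutrophil-granulocyte progenitors with low levels of secondary granule transcripts were described in mouse bone marrow, 2889 of 26943 cells. They were chosen by measured values, the UMI counts (unique molecules) of named transcripts in each cell. A cell needed at least 1000 gene UMIs, at most 10% mitochondrially encoded UMIs and exactly 1 sample hashtag with at least 200 counts. The summed UMIs of Gstm1, Fcnb, Cebpe, Gfi1 and Trem3, called N here, had to reach 6 and be at least 2 times the summed UMIs of the monocyte genes F13a1, Ms4a6c, Csf1r, Klf4 and Ly86, called M. Elane and Prtn3 together had to reach 10 per 10000 UMIs, and Camp, Ngp, S100a8, S100a9 and Ltf together had to stay under 50 per 10000. Levels of these 17 genes are therefore given as a description without a test, and so are comparisons of any gene between these cells and other cells.

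The cells came from wild-type mice that had all received E0771 breast cancer cells (an established mouse line) 3 days before the operation, which was either a sham procedure or femoral artery ligation, closing the main vessel to the hind limb. Marrow was taken on day 9 after surgery and sorted for stem and progenitor cells (Lineage-, cKit+, Sca1+ or Sca1-) and profiled by PIPseq, a droplet method for single-cell RNA. Each of 2 libraries, called batches here as in the hashtag names, held 2 sham and 2 surgery replicates, so 4 replicates stood in each group; the sex and age of the mice, and whether a replicate was 1 mouse or a pool, are not stated in the labels, so the p-values rest on a spread between replicates that may be technical. The study asked how ischaemic injury acts on haematopoietic stem and progenitor cells, and all groups carry the tumour, so no value here is from a tumour-free mouse.

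Neutrophils arise from granulocyte-monocyte progenitors through a promyelocyte stage, in which the serine proteases and myeloperoxidase of the azurophil (primary) granules are made, followed by a myelocyte stage, in which the proteins of the secondary granules appear. The transcription factors PU.1 and C/EBP alpha drive entry into the myeloid lineages, and Gfi1 and C/EBP epsilon drive the granulocytic branch, C/EBP epsilon being required for secondary granules. In the marrow these early granulocytic cells still divide and still carry cKit, so they fall within the sort gate.

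The promoters of 5 genes that mark these cells are shown, with that of Tex2, the gene with the lowest adjusted p after surgery (below). Each is the 250 bases before the RefSeq transcription start on GRCm38.p6, written 5′ to 3′ on the strand of the gene. Capitals mark matches, on either strand, to GGAAGT, the core bound by PU.1, or to TAACNG, a MYB site. Matches to TTGCNNAA, a C/EBP site, were searched for too.
Elane, chr10:79886062-79886311, plus strand: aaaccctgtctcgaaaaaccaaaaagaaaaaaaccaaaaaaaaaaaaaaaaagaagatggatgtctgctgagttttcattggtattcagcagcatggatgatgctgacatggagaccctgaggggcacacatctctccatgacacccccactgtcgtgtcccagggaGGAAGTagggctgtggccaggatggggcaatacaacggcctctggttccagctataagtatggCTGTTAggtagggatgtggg
Prtn3, chr10:79879417-79879666, plus strand: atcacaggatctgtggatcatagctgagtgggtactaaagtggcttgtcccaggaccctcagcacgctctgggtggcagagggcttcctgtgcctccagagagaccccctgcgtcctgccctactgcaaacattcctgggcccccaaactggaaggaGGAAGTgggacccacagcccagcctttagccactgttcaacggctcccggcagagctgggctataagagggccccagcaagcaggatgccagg
Ctsg, chr14:56102575-56102824, minus strand: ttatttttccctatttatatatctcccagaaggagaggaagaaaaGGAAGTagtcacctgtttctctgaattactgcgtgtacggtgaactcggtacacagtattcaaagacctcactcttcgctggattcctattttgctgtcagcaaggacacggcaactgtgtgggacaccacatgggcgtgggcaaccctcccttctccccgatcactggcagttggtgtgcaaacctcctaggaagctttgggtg
Mpo, chr11:87793534-87793783, plus strand: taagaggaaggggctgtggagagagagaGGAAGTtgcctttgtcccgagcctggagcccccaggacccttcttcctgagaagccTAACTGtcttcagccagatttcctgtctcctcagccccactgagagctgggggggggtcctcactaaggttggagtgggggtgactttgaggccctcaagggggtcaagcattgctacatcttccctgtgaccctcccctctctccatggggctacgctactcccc
Ms4a3, chr19:11640852-11641101, minus strand: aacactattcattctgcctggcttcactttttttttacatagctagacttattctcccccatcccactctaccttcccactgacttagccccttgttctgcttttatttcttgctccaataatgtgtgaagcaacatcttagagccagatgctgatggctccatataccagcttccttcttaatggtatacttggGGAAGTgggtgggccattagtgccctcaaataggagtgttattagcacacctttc
Tex2, chr11:106612931-106613180, minus strand: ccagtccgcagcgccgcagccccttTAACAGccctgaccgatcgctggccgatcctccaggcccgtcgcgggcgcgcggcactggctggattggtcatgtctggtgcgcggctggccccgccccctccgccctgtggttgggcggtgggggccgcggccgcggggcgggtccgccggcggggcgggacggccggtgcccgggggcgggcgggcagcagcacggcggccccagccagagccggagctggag
All 5 marker promoters held 1 GGAAGT match, beginning 83 bases before the start in Elane, 93 in Prtn3, 205 in Ctsg, 222 in Mpo and 55 in Ms4a3; 19.7% of 32851 mouse promoter windows of this length held one. The TAACNG motif matched once each in Elane, Mpo and Tex2 and was found in 19.8% of windows. The TTGCNNAA motif, found in 9.56% of windows, matched none of the 6, which says only that these letters are not in these windows.

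The replicates held 237 to 558 of these cells, with medians of 14880 to 15868.5 UMIs per cell in batch 1 and 19338 to 20281 in batch 2, and with 3532035 to 9392996 UMIs in all per replicate. In the replicates, 7.14% to 15.9% of these cells held 0 UMIs of Camp, Ngp, S100a8, S100a9 and Ltf together. These 5 are called the secondary granule genes of the rule here, although S100a8 encodes a protein of the cytosol. S100a8 gave most of their UMIs in these cells (levels below). No barcode of these cells occurred in both libraries, while 4 single-hashtag barcodes of any kind did. The replicate labelled batch 1 sham 1 stood apart in Xist and Eif2s3y. Among its 237 progenitors Xist was at 16.1 CPM (counts of the gene scaled to a common total of gene UMIs per replicate, the usual CPM unit), against 791 to 938 CPM in the other 7 replicates, and the Y-linked Eif2s3y was at 5.95 CPM, against 0 UMIs in each of the others. Of the other Y-linked genes, Ddx3y was at 44.2 CPM, against 28.0 to 38.1, and Uty at 9.34 CPM, against 0.639 to 8.16. The genes called after surgery, and the fold change of Thbs1, are given below with and without it. Other results include it, except where each replicate was left out in turn.

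The cells carried the azurophil granule genes at high levels in every replicate. Elane, which encodes neutrophil elastase, was at 14173 ± 552 CPM (SD, n = 8 replicates, as for all levels in this and the next 2 paragraphs) and Prtn3, proteinase 3, at 6824 ± 251 CPM. Outside the rule, Ctsg, cathepsin G, was at 6231 ± 216 CPM, with the lowest replicate at 5776 and the highest at 6446. Ms4a3, a membrane protein of granulocyte-monocyte progenitors, was at 1830 ± 64.4 CPM and ranged from 1766 to 1958. Gstm1, a glutathione transferase that gave 55.5% of all N UMIs, was at 722 ± 65.9 CPM, and the replicates of the 2 groups overlapped for each of these 5 genes. Mpo, myeloperoxidase, was at 8178 ± 270 CPM and ranged from 7789 to 8543 CPM, and Srgn, the proteoglycan core that holds proteases in granules, was at 3440 ± 148 CPM.

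Compared with 2271 secondary-granule cells, which met the same rule except that the 5 secondary granule genes reached 50 per 10000, the earlier progenitors had lower levels of the granule transcripts given here. Elane was at 20855 ± 416 CPM in the secondary-granule cells, Prtn3 at 10117 ± 337, Ctsg at 6664 ± 405 and Mpo at 9166 ± 283, and the granule membrane tetraspanin Cd63 was at 1361 ± 62.2 CPM in the progenitors and 1935 ± 68.4 in the later cells. The 6 NADPH oxidase genes, which make the respiratory burst enzyme, summed to 1107 ± 31.8 CPM against 2024 ± 57.8. Wfdc21, a small secreted protein outside the rule, was at 230 ± 36.3 CPM against 1344 ± 110, and Chil3, a chitinase-like protein, at 4.66 ± 1.82 against 163 ± 90.0. In the other direction Cd34, a surface antigen of early progenitors, was at 60.4 ± 7.97 CPM in the progenitors and 4.11 ± 1.47 in the later cells, Sox4 was at 80.9 ± 5.74 against 15.4 ± 2.61, and the 21 MYC and ribosome biogenesis genes summed to 4262 ± 116 CPM against 2887 ± 88.9. The 22 genes of endoplasmic reticulum folding and the unfolded protein response summed to 6612 ± 218 CPM in the progenitors, 5794 ± 230 in the secondary-granule cells and 5030 ± 201 in the monocyte-side cells.

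Monocyte-side cells were defined as a mirror image, with M at least 6, M at least 2 times N and the same limit on secondary granule genes, and there were 5251 of them. They held Mpo at 3720 ± 214 CPM, Elane at 4390 ± 406 and Ctsg at 2314 ± 81.7. Free RNA in the droplets was not measured, and its part in these levels was not tested. Cd63 was at 78.7 ± 10.6 CPM and Prss57, another azurophil serine protease, at 62.5 ± 8.43 CPM against 381 ± 25.6 in the progenitors. Gfi1 was at 122 ± 10.6 CPM in the progenitors and 12.7 ± 2.21 in the monocyte-side cells, a difference that the rule builds in. Of the regulators outside the rule, Spi1, which encodes PU.1, was at 254 ± 12.2 and 279 ± 18.2 CPM, Cebpa at 99.8 ± 8.06 and 89.2 ± 4.86, Myb at 506 ± 10.003 and 205 ± 11.1, and Zeb2 at 267 ± 25.0 and 732 ± 105. Csf3r, the G-CSF receptor, was at 104 ± 6.68 CPM in the progenitors and 48.2 ± 2.24 in the monocyte-side cells, and Il6ra, the IL-6 receptor, at 19.3 ± 1.95 against 89.2 ± 7.97. Among genes outside the rule with at least 200 CPM, the highest ratios to all 24054 other cells were those of Prss57 (3.20), Ms4a3 (3.02), Nkg7 (2.93), Prg2 (2.85), Alas1 (2.84) and Cd63 (2.71). Alas1 is the rate-limiting enzyme of haem synthesis, and Nkg7 is a granule membrane protein also used as a lymphocyte marker. The secondary-granule cells, which are among those other cells, had higher levels than the progenitors of Prss57 (458 ± 28.2 CPM), Ms4a3 (2203 ± 59.3), Nkg7 (1531 ± 46.6 against 1267 ± 46.5) and Cd63. Alas1 was at 433 ± 25.5 CPM there against 455 ± 19.0 in the progenitors, and Prg2 at 7.28 ± 2.42 against 231 ± 165.

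**Figure D1:**
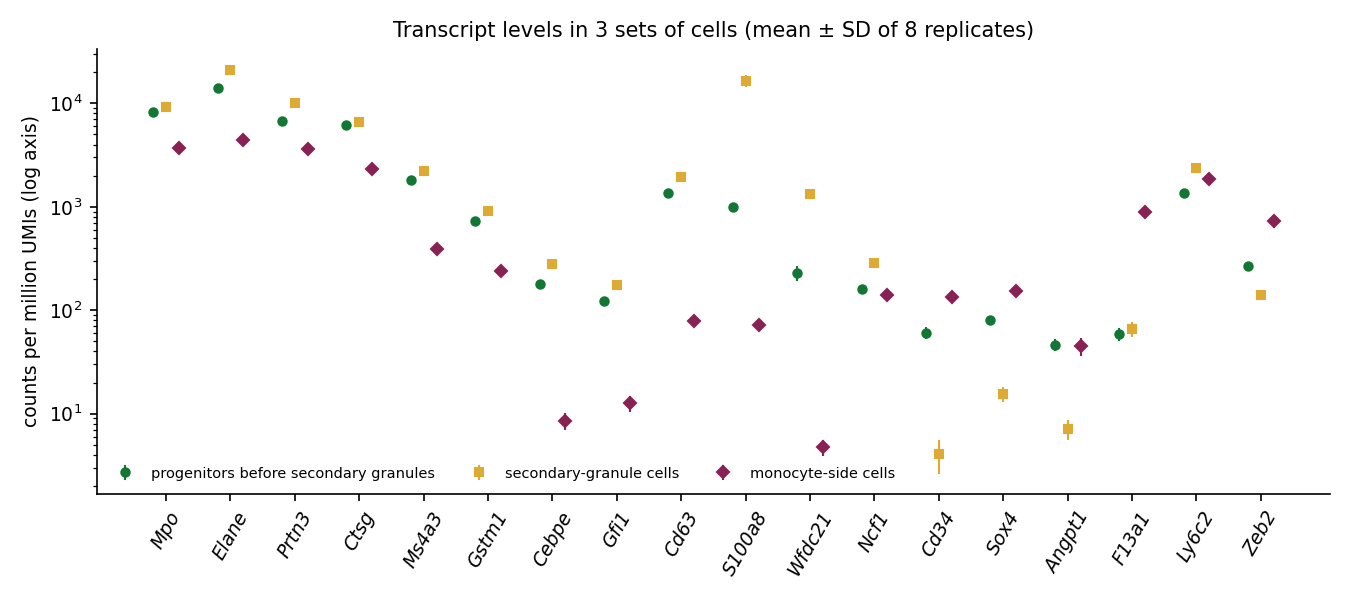
Levels of 18 genes (CPM, log axis) in progenitors before secondary granules, secondary-granule cells and monocyte-side cells; points are means and bars SDs of 8 replicates. Elane, Prtn3, Mpo and Ctsg are high in all 3 sets, Cebpe and Gfi1 are low in the monocyte-side cells, and Cd34, Sox4 and Angpt1 are low in the secondary-granule cells.

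Of 13 marker lists for other lineages, 10 summed to a lower level than in all other cells. That for erythroid cells summed to 141 CPM (against 2699 CPM in all other cells), that for megakaryocytes to 164 (465), that for stem and multipotent cells to 217 (596), that for lymphoid-primed cells to 68.9 (297), that for dendritic cells to 246 (820), that for B cells to 95.4 (1400) and that for basophils and mast cells to 316 (1623). The lists for endothelial and stromal cells and for the epithelial tumour line summed to 39.9 and 21.7 CPM, with the claudin Cldn4 of the latter at 0 UMIs, and that for macrophages to 80.8 CPM (58.6), of which Vcam1 gave 76.5. The monocyte list summed to 1591 CPM (2607 CPM in other cells), of which Ly6c2, an antigen shared by early granulocytes and monocytes, gave 1359. Nkg7 gave 1267 of the 1269 CPM of the T, NK and innate lymphoid list (465).

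The eosinophil list summed to 473 CPM, against 154 CPM in all other cells. It includes Cebpe, which the rule counts, and its other 8 genes summed to 292 and 99.1 CPM. Prg2, the eosinophil major basic protein, ranged from 47.0 to 488 CPM over the replicates. Of the 2889 cells, 64 had at least 10 UMIs of Prg2, Prg3, Epx, Ear1, Ear2, Ear6 and Il5ra together, with a median of 164.5 such UMIs, and 2246 had none. In these 64 cells Prg2 was at 16700 CPM, against 9.61 CPM in the remaining 2825, Epx, eosinophil peroxidase, at 940 against 0.812, and Gata1, a transcription factor used by eosinophils, at 59.4 against 1.74. The same 64 cells had more Cebpe (662 against 174 CPM) and less Gstm1 (266 against 733), Fcnb (7.42 against 85.4), Trem3 (28.5 against 198) and Elane (4403 against 14248). They made up 0.690% to 3.10% of the progenitors in each replicate, and results with them left out are given where this bears on a count.

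Within the progenitors, cells were divided in each replicate into tertiles of N per 10000 UMIs, which had medians of 7.93, 12.8 and 18.5. The tertiles were near each other in depth, with medians of 17767, 18274.5 and 17049.5 UMIs. Of the 18 listed early progenitor genes, 15 were lower in the highest than in the lowest tertile in all 8 replicates. The other 3 were Kit (137 and 128 CPM in the lowest and highest), Hlf (16.03 and 14.5) and Ly6a (0.833 and 0.786). Over 1681 genes outside the rule with at least 100 CPM in either tertile, 499 were lower in all 8 replicates. Some of the 18 listed genes did not reach that level. Cd34 was at 113 ± 14.2, 46.5 ± 9.13 and 17.9 ± 4.43 CPM from the lowest to the highest tertile. Among genes outside that list, Cpa3, mast cell carboxypeptidase and a basophil and mast cell marker, was at 143 ± 41.2, 37.3 ± 14.8 and 5.48 ± 3.67, and Ikzf2, a zinc finger transcription factor, at 111 ± 18.3, 36.1 ± 6.36 and 12.7 ± 3.34. Prg2 was at 320 ± 248, 299 ± 340 and 65.5 ± 79.4 CPM, lower in the highest tertile in 7 of 8 replicates, and Ikzf2 was at 622 CPM in the 64 cells with eosinophil transcripts and 46.1 in the others; the part of those cells in these values was not tested. Angpt1, a ligand of the Tie2 receptor, was at 98.9 ± 12.05, 25.7 ± 6.84 and 11.9 ± 2.29, and Sox4 at 136 ± 17.5, 65.2 ± 8.69 and 38.1 ± 9.53. Cd34, Cpa3, Ikzf2, Angpt1 and Sox4 were each lower in the highest than in the lowest tertile in all 8 replicates.

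Of the 12 secondary and gelatinase granule genes outside the rule, 4 (Chil3, Hp, Ltb4r1 and Wfdc21) were higher in the highest tertile in all 8 replicates and 0 were lower in all 8. Lcn2, lipocalin 2, was at 9.59 ± 2.21 and 10.2 ± 2.94 CPM in the lowest and highest tertiles and Anxa1, annexin 1, at 193 ± 22.9 and 219 ± 18.4. S100a8, a calcium-binding protein of the neutrophil cytosol whose level is capped by the rule, was at 266 ± 61.6, 869 ± 124 and 1912 ± 203 CPM. Over all the progenitors S100a8 was at 965 ± 78.7 CPM in sham and 1009 ± 102 in surgery replicates. The 5 capped genes together summed to 1033 ± 79.8 and 1088 ± 106 CPM, so the limit was mainly one on S100a8 in these cells. Outside the rule, Wfdc21 was at 67.0 ± 19.1, 214 ± 45.2 and 426 ± 51.3 CPM, Clec4a2, a lectin receptor, at 49.96 ± 13.7, 115 ± 10.9 and 178 ± 15.2, and Hp, haptoglobin, at 239 ± 21.7, 372 ± 30.2 and 484 ± 25.5. Of the azurophil genes, Ctsg was at 4844 ± 325 CPM in the lowest and 7421 ± 281 in the highest tertile. Mpo was at 7219 ± 255 and 9040 ± 320 CPM. Both differed by less, in ratio, than Wfdc21, Clec4a2 and Hp, and by more than Lcn2 and Anxa1. In the lowest and highest tertiles Myb was at 544 ± 18.2 and 480 ± 19.7 CPM, Etv6 at 429 ± 46.3 and 280 ± 33.4 and Runx1 at 220 ± 18.3 and 160 ± 20.6, while Cebpb was at 33.0 ± 4.04 and 53.1 ± 5.69 CPM and Cebpd at 63.4 ± 8.34 and 107 ± 12.1. Of 1681 genes outside the rule with at least 100 CPM in the lowest or highest tertile, 263 were higher in the highest tertile in all 8 replicates and 499 were lower in all 8. As N is counted in the same cells, these values describe the range of the set and are not a test.

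**Figure D2:**
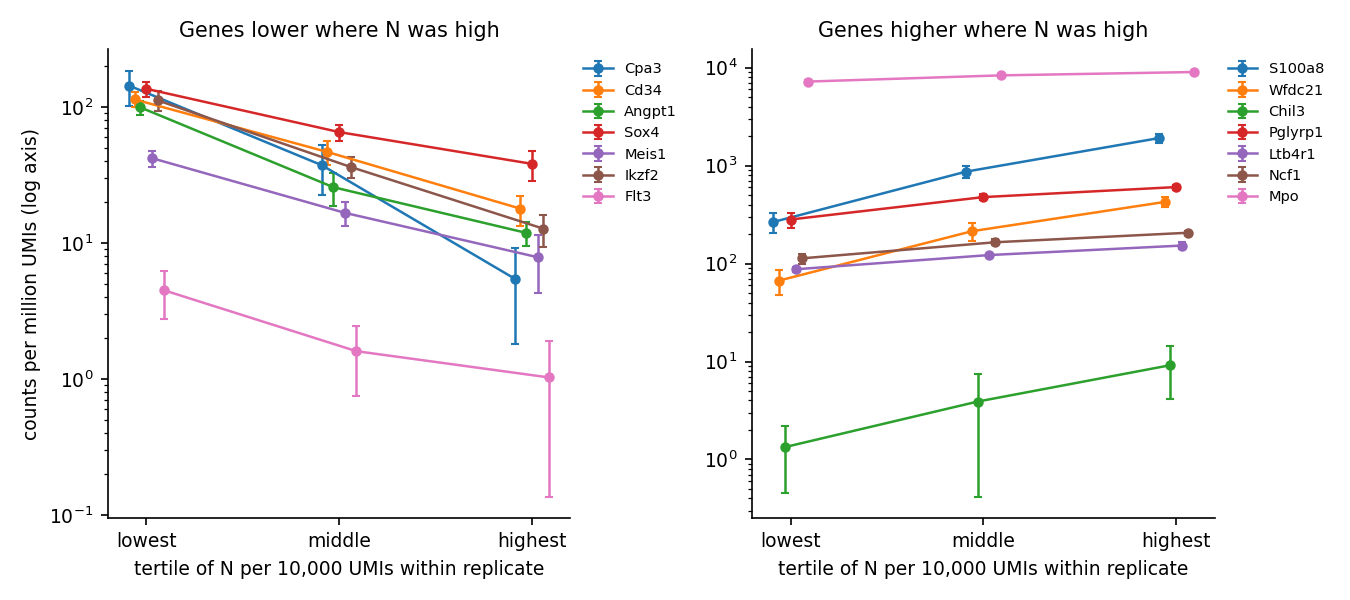
Levels (CPM, log axis) in tertiles of N per 10000 UMIs within each replicate, mean ± SD of 8 replicates, for 7 genes that were lower and 7 that were higher where N was high. Cd34 is at 113 CPM in the lowest and 17.9 in the highest tertile and S100a8 at 266 and 1912 CPM, while Mpo is at 7219 and 9040 CPM.

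The 206 cells just inside the N limit (6 or 7 UMIs) had Ctsg at 3279 CPM and Cd34 at 157 CPM, and 281 cells just outside it (4 or 5 UMIs), which met the other criteria, had 2793 and 183 CPM, with median depths of 8896.5 and 6040 UMIs. The 187 cells just under the limit on Camp, Ngp, S100a8, S100a9 and Ltf together (40 to 50 per 10000) had Ctsg at 7269 CPM and Cd34 at 8.21 CPM. The 171 cells just over that limit (50 to 60 per 10000) had 7832 and 4.81 CPM.

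The share of sorted cells that were such progenitors did not differ between the groups by the test. In the batch 1 sham replicates they were 9.88% and 9.48% of cells and in batch 2 10.8% and 10.5%, a mean of 10.2% ± 0.603 (SD, n = 4). In the surgery replicates they were 9.82% and 8.44% in batch 1 and 17.6% and 12.8% in batch 2, a mean of 12.2% ± 4.04. The groups overlapped, the difference being 1.99 points (two-sided exact permutation p = 0.457, 70 splits, smallest possible p 0.0286; adjusted p = 0.750 over 5 such tests). It was -0.552 points in batch 1 and 4.53 in batch 2, and without batch 2 surgery replicate 1, the replicate at 17.6%, it was 0.183. Progenitors were 55.9% ± 4.30 (sham) and 56.1% ± 1.24 (surgery) of progenitors plus secondary-granule cells (exact permutation p = 1). They were 34.4% ± 2.06 and 38.3% ± 10.2 of progenitors plus monocyte-side cells (exact permutation p = 0.600), with differences of -4.91 points in batch 1 and 12.5 in batch 2. The permutations did not keep the batches apart. The limit on N is in raw UMIs and so depends on depth. Median UMIs of all cells were 5860.5 to 7190.5 in batch 1 and 10291 to 12404 in batch 2. With N at least 10 per 10000 UMIs instead, the share difference was 1.44 points (exact permutation p = 0.657). The sort gate bears on these shares, and they are shares of captured cells, not numbers in the marrow.

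**Figure D3:**
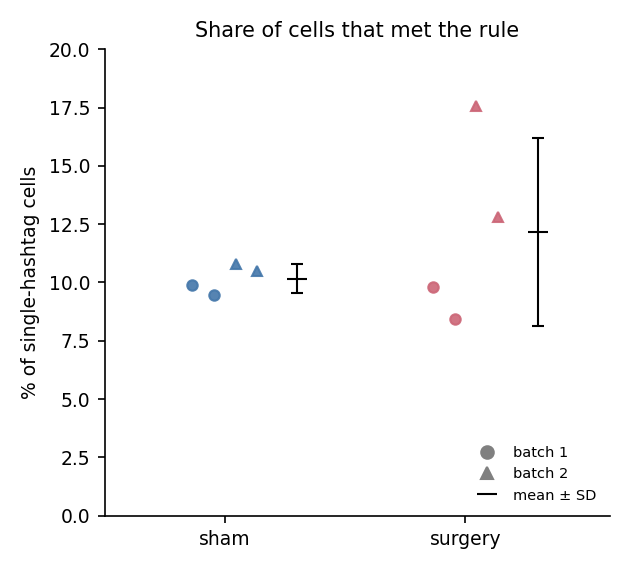
Percent of single-hashtag cells that met the rule, by replicate, with the mean and SD of 4 replicates a group. The sham replicates lie between 9.48% and 10.8%, and the surgery replicates spread from 8.44% to 17.6%, both batch 2 values being above all sham values.

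The progenitors carried transcripts of dividing cells. After each cell was thinned to 2000 UMIs, which left out 2 of the 2889 cells and 102 of the 5251 monocyte-side cells, the share of cells with UMIs of at least 3 of 25 G2 and M phase genes was 13.7 points lower in the progenitors on average over the 8 replicates. Unthinned, where the progenitors reached 92.8% to 97.3%, the difference was 1.21 points in the other direction. The summed level of the 25 genes was 1895 ± 117 CPM in the progenitors, 2726 ± 154 in the monocyte-side cells and 1790 ± 122 in the secondary-granule cells. The share in the progenitors exceeded that in the secondary-granule cells by 3.05 points at 2000 UMIs, but the difference was -0.195 points at 4000 UMIs. The share with at least 3 of 25 S phase genes was 3.82 points below that of the monocyte-side cells, and the difference was -0.312 points at 4000 UMIs. The part of free RNA in these shares was not tested.

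Between the groups, 45.0% ± 3.21 of sham and 48.5% ± 2.24 of surgery progenitors passed for G2 and M phase (exact permutation p = 0.114, adjusted p = 0.571 over 5 tests). The difference was 0.504 points in batch 1 and 6.49 in batch 2, and the groups overlapped. It reached the smallest possible p, 0.0286, without batch 1 sham replicate 2, and was -0.865 points after thinning to 1000 UMIs. For S phase the shares were 82.0% ± 2.48 and 80.8% ± 1.49 (exact permutation p = 0.486, adjusted p = 0.750).

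Within the progenitors, 10 of the 12018 genes tested were called higher in the surgery replicates and 0 lower (edgeR's quasi-likelihood test on UMIs summed per replicate, batch as a term, adjusted p under 0.05). That is 0.0832% of the genes tested, and the median log2 fold change of all of them was 0.00029. DESeq2 called 7 of the same 10 and also none lower; at an unadjusted p under 0.05 edgeR had 581 genes, 244 of them lower. The surgery replicates did not overlap the sham replicates for 9 of the 10. Over all genes tested, 1.07% had every surgery value above every sham value. The 10 were called on these same values, so the lack of overlap adds no support. Fold changes below are log2 of surgery over sham ± SE, and levels are CPM, mean ± SD over 4 replicates.

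Tex2, which encodes a lipid-binding protein of the endoplasmic reticulum, spans 106502147 to 106613423 of chromosome 11 (minus strand, GENCODE M21 on GRCm38). It was at 140 and 89.1 CPM in the batch 1 sham replicates, 83.2 and 82.1 in batch 2, and at 217, 207, 203 and 196 CPM in the surgery replicates. It rose from 98.5 ± 27.6 to 206 ± 9.03 CPM (1.13 ± 0.09, edgeR adjusted p = 5.68e-06). All surgery replicates lay above all sham replicates, and batch 1 sham replicate 1 was the highest of the sham values. Fgd4, an exchange factor that activates the GTPase Cdc42, spans 16416917 to 16600549 of chromosome 16. It was at 57.5, 47.8, 39.7 and 43.0 CPM in sham and 84.9, 88.6, 64.1 and 61.9 CPM in surgery replicates, and rose by 0.68 ± 0.06 (edgeR adjusted p = 2.07e-05) with no overlap. Pim1, a serine/threonine kinase induced by cytokine signals through STAT proteins, spans 29490753 to 29496112 of chromosome 17. It was at 48.7, 50.6, 33.9 and 40.7 CPM in sham and 62.6, 63.3, 61.9 and 56.9 in surgery replicates, and rose by 0.51 ± 0.08 (edgeR adjusted p = 0.00671), again with no overlap.

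Thbs1, thrombospondin 1, a secreted matrix glycoprotein, spans 118111876 to 118127133 of chromosome 2. Its sham values were 17.6, 1.11, 1.28 and 2.33 CPM and its surgery values 41.5, 20.3, 42.5 and 29.8 CPM. The sham replicate at 17.6 CPM was batch 1 sham replicate 1, and the other sham replicates held 10, 10 and 16 UMIs. Thbs1 rose by 3.17 ± 0.45 (edgeR adjusted p = 0.00665), and by 4.46 ± 0.29 without that replicate. DESeq2 gave a Thbs1 fold change of 3.02 ± 0.93 with an adjusted p of 0.552. Gm13986 is a noncoding transcript on the opposite strand (117857291 to 118111202 of chromosome 2). Its annotated start lies 674 bases before that of Thbs1, and it runs away from Thbs1. Its level rose from 1.70 ± 0.992 to 5.03 ± 0.818 CPM (1.73 ± 0.30, edgeR adjusted p = 0.0253).

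Tap2, a subunit of the transporter that carries peptides to MHC class I molecules, spans 34203527 to 34216321 of chromosome 17. It was at 134, 104, 94.4 and 92.8 CPM in sham and 149, 146, 136 and 126 CPM in surgery replicates, and rose by 0.42 ± 0.06 (edgeR adjusted p = 0.00671). It is the 1 gene of the 10 whose groups overlapped, through batch 1 sham replicate 1. Hk1, hexokinase 1, the enzyme at the entry of glycolysis, spans 62268855 to 62379908 of chromosome 10 and was at 50.4, 44.4, 46.3 and 42.7 CPM in sham and 57.6, 55.5, 62.4 and 59.9 CPM in surgery replicates (0.38 ± 0.06, edgeR adjusted p = 0.0238). Myl10, a regulatory light chain of myosin, spans 136693146 to 136701094 of chromosome 5 and was at 13.02, 6.90, 5.78 and 9.76 CPM in sham and 25.4, 18.5, 24.3 and 15.1 CPM in surgery replicates (1.32 ± 0.20, edgeR adjusted p = 0.00682). The Hk1 and Myl10 values did not overlap between groups, and DESeq2 gave both genes an adjusted p of 0.0544.

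The remaining 2 genes were rare. Nlrp3, the sensor of the inflammasome that activates caspase 1, spans 59541568 to 59566956 of chromosome 11, and 34 UMIs were counted over the 4 sham and 120 over the 4 surgery replicates. Its level went from 1.30 ± 0.564 to 4.49 ± 1.42 CPM (1.84 ± 0.32, edgeR adjusted p = 0.0253). Samd5, a gene for a sterile alpha motif protein at 9622936 to 9675208 of chromosome 10, had 14 UMIs in sham and 93 in surgery replicates, and its level went from 0.695 ± 0.697 to 3.81 ± 0.935 CPM (2.79 ± 0.45, edgeR adjusted p = 0.0159). Neither gene overlapped between groups.

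Without batch 1 sham replicate 1, all 10 genes were again called, among 12 higher and 1 lower, and without the 64 cells with eosinophil transcripts the same 10 were called. Leaving out any other replicate ended some of the calls. Of the 10, 2 (Tex2 and Fgd4) were kept without batch 2 sham replicate 1, 3 without batch 2 sham replicate 2, 5 without batch 1 sham replicate 2, 6 without replicate 1 of surgery in either batch, 7 without batch 2 surgery replicate 2 and 8 without batch 1 surgery replicate 2. Tex2 passed under each of 22 other settings, Fgd4 under 20, Tap2 under 19, and Thbs1 and Pim1 under 18 of them. Fewer passes were seen for Myl10 (16 of 21), Samd5 (14 of 21), Hk1 (12 of 22), Nlrp3 (12 of 20) and Gm13986 (11 of 21).

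**Figure D4:**
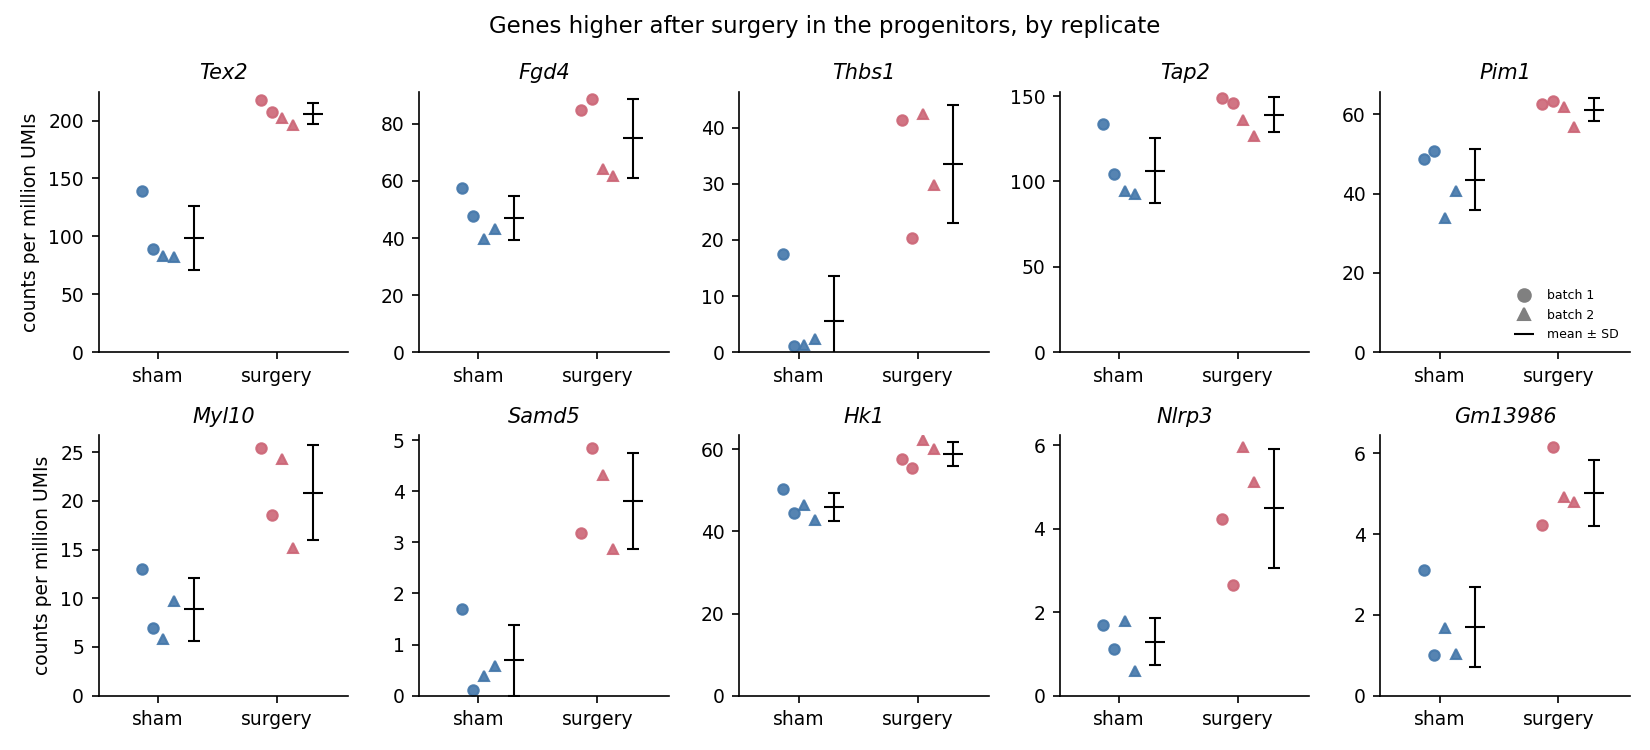
CPM in each replicate for the 10 genes that rose after surgery, with group means and SDs (n = 4; the lower bar of Thbs1 and Samd5 in sham is cut at 0). Surgery replicates lie above all sham replicates for each gene except Tap2, and batch 1 sham replicate 1 is the highest sham value for Tex2, Thbs1, Fgd4, Tap2, Myl10, Samd5, Hk1 and Gm13986.

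The granule program itself showed no gene past the test. Of 15 azurophil granule genes outside the rule that passed the filter on low counts, of 18 listed, none was called, 9 had positive and 6 negative fold changes, and the median was 0.01; Mpo went from 8195 ± 276 to 8161 ± 306 CPM and Ctsg from 6153 ± 300 to 6309 ± 52.4. Of the rule genes, Elane was at 14312 ± 612 CPM in sham and 14034 ± 533 in surgery, and Gstm1 at 722 ± 56.3 and 721 ± 83.3. None of 6 secondary and gelatinase granule genes tested, 6 NADPH oxidase genes or 17 early progenitor genes was called, with medians of 0.03, 0.03 and 0.02. Of 20 regulators of neutrophil fate, none was called. The lowest adjusted p among them was that of Cebpa, whose values were 94.6, 94.97, 87.9 and 93.6 CPM in sham and 110, 109, 103 and 105 CPM in surgery replicates (0.21 ± 0.04, edgeR adjusted p = 0.153); the groups did not overlap. Of 18 cytokine receptor and signalling genes, Pim1 alone was called, with 12 negative fold changes and a median of -0.02; Csf3r was at 107 ± 4.40 and 102 ± 8.32 CPM.

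Stress, immune and metabolic lists gave few calls. Tap2 was the called gene of 14 in MHC class I antigen processing, a list with 7 positive and 7 negative fold changes, and Psmb8, an immunoproteasome subunit, went from 362 ± 4.03 to 397 ± 6.89 CPM (0.13 ± 0.03, edgeR adjusted p = 0.418). Nlrp3 was the called gene of 19 in the TNF and NF-kB list, where Adam17, the sheddase that releases TNF, was at 40.2 ± 2.46 and 48.1 ± 4.69 CPM (0.26 ± 0.06, edgeR adjusted p = 0.340). None was called among 16 interferon-stimulated, 18 hypoxia and glycolysis, 23 oxidative phosphorylation, 13 HSC ageing or 21 MYC and ribosome biogenesis genes. Hk1, which was called, is not in the hypoxia and glycolysis list. In the unfolded protein response list 19 of 22 fold changes were positive with a median of 0.06 and none was called; its Ern1, the stress sensor IRE1 alpha, was at 107 ± 7.29 and 118 ± 3.95 CPM (0.15 ± 0.05, edgeR adjusted p = 0.879). In the S phase list 21 of 25 were positive, with a median of 0.05 and no call, against 50.1% positive over all genes tested.

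All 10 of the 13 listed B cell genes that passed the filter had negative fold changes, with a median of -0.20 and no call. The summed level of all 13 was 98.1 to 118 CPM in sham and 81.3 to 89.2 CPM in surgery replicates, without overlap. The sums of the other marker lists overlapped between the groups. The B cell sum went from 141 ± 21.1 to 114 ± 12.5 CPM in the secondary-granule cells but from 322 ± 30.3 to 340 ± 51.5 CPM in the monocyte-side cells. Of all genes tested singly, 0.974% had every surgery value below every sham value. Ighm, the heavy chain of IgM, led the list at 43.9 ± 2.79 and 36.1 ± 4.37 CPM, and Cd79a was at 1.90 ± 1.08 and 1.62 ± 0.389 CPM. The part of these transcripts in the surgery results was not tested.

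The surgery effect was then compared with that in the neighbouring cells by an interaction term in edgeR, with each replicate as a block. Against the monocyte-side cells, 3 of 13053 genes (0.023%) differed. Tex2 rose more in the progenitors, by 0.53 ± 0.06 (edgeR adjusted p = 4.58e-05), its own fold change in the monocyte-side cells being 0.59 ± 0.06, from 75.8 ± 13.1 to 112 ± 7.72 CPM. Vegfa, the endothelial growth factor, went from 6.30 ± 2.998 to 11.7 ± 0.881 CPM in the monocyte-side cells and was at 25.7 ± 3.35 and 26.5 ± 2.77 CPM in the progenitors, an interaction of -1.03 ± 0.17 (edgeR adjusted p = 0.00588). The noncoding Gm12718 (103382500 to 103492040 of chromosome 4) went from 10.7 ± 2.63 to 17.4 ± 2.40 CPM in the progenitors and from 12.2 ± 1.87 to 8.36 ± 3.52 in the monocyte-side cells, an interaction of 1.17 ± 0.21 (edgeR adjusted p = 0.0179). Neither Vegfa nor Gm12718 was called in either set alone. In the monocyte-side cells the groups overlapped for both genes. For Vegfa the overlap came through batch 1 sham replicate 1, at 10.78 CPM against 10.75 in batch 1 surgery replicate 1. Of 10 other settings, the interaction passed under all 10 for Tex2 and under 7 each for Vegfa and Gm12718. Pim1 was at 104 ± 15.1 and 109 ± 9.29 CPM in the monocyte-side cells, and its interaction of 0.41 ± 0.08 did not pass (edgeR adjusted p = 0.0968).

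Against the secondary-granule cells, 3 of 11936 genes (0.0251%) differed, all of them noncoding transcripts. Gm38825, annotated as antisense on chromosome 6 (67179799 to 67239710), went from 15.4 ± 1.94 to 37.5 ± 18.5 CPM in the secondary-granule cells, where the highest surgery value was 65.0 CPM in batch 1 replicate 1, and was at 25.6 ± 8.46 and 20.5 ± 7.17 CPM in the progenitors (interaction -1.61 ± 0.18, edgeR adjusted p = 1.09e-06). How reads on the opposite strand were counted is not stated in the labels. Bc1, a small cytoplasmic RNA, had an interaction of 1.30 ± 0.21 (edgeR adjusted p = 0.00188) and Gm36264 of 1.09 ± 0.20 (edgeR adjusted p = 0.00963); in the progenitors they went from 16.6 ± 6.55 to 24.5 ± 6.46 CPM and from 14.2 ± 6.11 to 20.3 ± 5.14 CPM, and in the secondary-granule cells from 18.0 ± 9.32 to 9.98 ± 3.50 and from 13.8 ± 5.34 to 8.67 ± 1.85. Their groups overlapped in the progenitors. Of 10 other settings, the interaction passed under 10 for Gm38825, 9 for Bc1 and 7 for Gm36264.

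Of the 10 genes that rose in the progenitors, 4 (Tex2, Fgd4, Thbs1 and Tap2) were also called in the monocyte-side cells and the same 4 in the secondary-granule cells, the fits calling 8 and 6 genes higher and 0 lower. The others were Arl5c, Mgst2, Pmaip1 and Ikbke in the monocyte-side cells and Ctsg and Gm38825 in the secondary-granule cells. Myl10 had fold changes of 1.32 ± 0.20 in the progenitors, 1.39 ± 0.25 in the monocyte-side cells and 1.33 ± 0.26 in the secondary-granule cells, the latter 2 short of the threshold (edgeR adjusted p = 0.0670 and 0.103). Nlrp3, at 1.84 ± 0.32 in the progenitors and 0.94 ± 0.19 in the monocyte-side cells, had an interaction of 0.92 ± 0.29 that did not pass (edgeR adjusted p = 0.790). Its level was far higher in the monocyte-side cells, at 37.4 ± 20.9 CPM in sham and 64.4 ± 3.91 in surgery replicates (3292 UMIs). In the progenitors it was at 1.30 ± 0.564 and 4.49 ± 1.42 CPM (154 UMIs). The part of free RNA in the Nlrp3 counts of the progenitors was not tested.

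**Figure D5:**
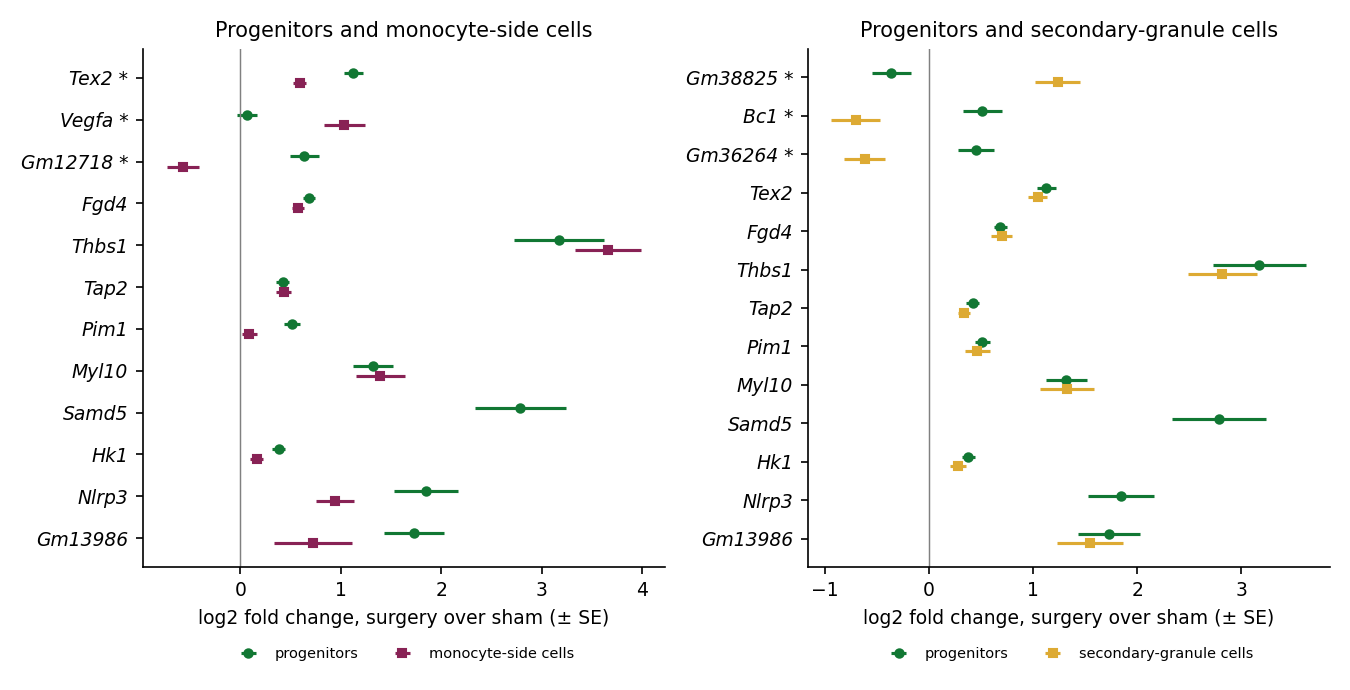
Fold changes of surgery over sham (log2 ± SE) in the progenitors and in monocyte-side cells (left) or secondary-granule cells (right), for genes whose effect differed (asterisks) and the 10 genes called in the progenitors; Samd5 has no point in either neighbouring set and Nlrp3 none in the secondary-granule cells, where they did not pass the filter on low counts. Thbs1, Fgd4 and Tap2 lie near each other in both panels, and Tex2 is higher in the progenitors than in the monocyte-side cells (1.13 against 0.59).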

How the data were processed

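The deposited matrices hold counts of UMIs per gene and barcode, whole numbers that were not normalised, from Cell Ranger on GRCm38 per the submitters' processing notes; versions and strand handling are not given in the sources used here. Hashtag counts stand in the same matrices (22.2% and 16.1% of all counts) and were kept out of gene totals. The treatment label names 1 group per library, whereas the hashtag names place both groups in both libraries; replicates were assigned by hashtag name.

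Of 32273 barcodes, 30641 passed the UMI and mitochondrial limits and 26943 of these carried 1 hashtag (2774 carried none and 924 several, which were left out). No doublet caller was run. Members were found by the stated rule, and members and gene lists were chosen with earlier results of these data known. UMIs were summed per replicate and tested with edgeR 4.0.16 in R 4.3.3 (filterByExpr, TMM, batch as a term, Benjamini-Hochberg adjustment over all genes tested; a call is an adjusted p under 0.05); DESeq2 1.42.0 was an alternative. CPM carry no TMM factor. On counts simulated from these sums without a batch difference, 96% of genes changed by 1 on the log2 scale were recovered. In that simulation 11860 genes were tested and 10 unchanged genes were called. The changed genes were drawn from those with a mean of at least 20 UMIs per replicate. Recovery of rarer genes or of smaller changes was not tested. The text names every gene called in the progenitors, in the neighbouring sets or by interaction, members of the lists, the 20 genes outside the rule with the highest ratio to other cells at 200 CPM or more, and the 10 highest and 10 lowest tertile ratios, in part. For shares the tests were exact permutations over replicates (two-sided). Replicates of the same number did not deviate together within a batch (correlations 0.0680 and 0.0377), so they were not paired. Alternatives were other limits of the rule, other thinning depths, other tools and terms, single batches and each replicate left out; leaving out cells with eosinophil transcripts was chosen after seeing the data.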

Additional observations from a re-analysis of the deposited data

Results flagged for a closer look

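In the progenitors the sham replicate labelled batch 1 sham 1 lay far from the other 3 sham replicates in 4 transcripts: Tex2 (139.6 CPM), Thbs1 (17.6 CPM), Xist (16.1 CPM, the lowest) and Eif2s3y (5.95 CPM). By chance about 1 in 20 groups of values would hold a replicate this far out. That rate is for each group of values, and the number of groups looked at is not given here. As all 4 flags are from the same replicate, they are not independent, and their number cannot be set against that rate. The surgery effect differed by an interaction test between the progenitors and the monocyte-side cells for Tex2 (0.53 on the log2 scale), Vegfa (-1.03) and Gm12718 (1.17), and between the progenitors and the secondary-granule cells for Gm38825 (-1.61), Bc1 (1.30) and Gm36264 (1.09). Among barcodes that no comparison used, 34 of 2774 without a hashtag met the rest of the rule, with a median of 3613.5 UMIs, and 116 of 924 with several hashtags did, 12.6% of them, with a median of 18952 UMIs.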

How the results depend on the processing

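The direction of each of the 10 called genes held under all alternatives that gave it a value. The number of genes higher, 10 in the report, was 43 without a filter on low counts (26 lower), 1 without the batch term, 3 after thinning, 2 within batch 1 and 6 within batch 2 (2 lower), and 2 to 12 with 1 replicate left out (0 to 1 lower). The replicate block gave 9 higher (without Gm13986, edgeR adjusted p = 0.0687) and 2 lower; for the share of cells the 4 pairs gave 1.99 points (exact sign-flip p = 0.5). The share difference was -0.552 points within batch 1 and 0.183 to 3.23 with 1 replicate left out. The G2 and M phase difference between groups was -0.865 points at 1000 UMIs and 2.50 to 4.83 with 1 replicate left out, the highest without batch 1 sham replicate 2. That of S phase, -1.19, was 3.32 at 1000 UMIs, 1.05 at 4000, 0.0290 with 2 genes and 1.38 with N at least 10 per 10000, and -2.11 to -0.279 with 1 replicate left out. Against monocyte-side cells the G2 and M difference was 1.21 unthinned, and the S difference -0.312 at 4000 UMIs and 2.12 unthinned. Against secondary-granule cells the G2 and M difference was 1.99 at 1000 UMIs, -0.195 at 4000 and -0.298 unthinned, and the S difference 0.0416 unthinned. Interaction genes numbered 33 and 27 without a filter, and 2 to 16 and 3 to 6 with 1 replicate left out, the monocyte-side counts being 16 without batch 2 sham replicate 2, 8 without batch 1 sham replicate 2 and 7 without batch 2 surgery replicate 1. The cause of these shifts was not tested. Depth limits Nlrp3, Samd5 and Gm13986, with 154, 107 and 166 UMIs in all.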
